A study of Mus musculus with 2 samples.

Results

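The 38 genes described here encode proteins that act in G2 and mitosis, and they were taken from both count matrices by their gene symbols. All 38 were among the 31053 features of the matrices, and they held 0.221% of the unique molecular identifiers (UMIs, 1 per captured transcript) of the control library and 0.206% of those of the stressed library. The study compared cells sorted for the surface proteins Cd11b and Cd45 from the pooled hypothalamic and thalamic region of CD1 mouse embryos at E15.5, on the 10x Genomics 3′ v3 platform. Control cells came from 10 embryos of 1 unexposed dam, and stressed cells from 5 embryos of 1 dam kept at 4 degrees for 30 min a day on each of 5 days from E11.5 to E15.5. Both groups were wild-type CD1, and the labels list no transgene. Each condition was therefore 1 library from 1 litter, so that condition, litter and library cannot be told apart, no test of a difference was possible, and every interval below is a 95% interval for counting error only.

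Cells divide in an ordered cycle in which DNA is copied in S phase, checked in G2 and parted in mitosis. Cyclin A2 and the B cyclins switch on the kinase Cdk1 at the entry into mitosis, motor proteins and kinases build the spindle, the kinetochore ties chromosomes to it, and the anaphase-promoting complex then has the cyclins degraded so that the cell can split. Transcripts of these genes build up from late S phase to mitosis, largely because a repressor complex that sits on their promoters in resting cells gives way to B-Myb and FoxM1. Microglia, the resident macrophages of the brain, settle there early in embryonic life and multiply in place, while border-associated macrophages live in the meninges and around vessels, and neural progenitors divide to give neurons.

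Promoters of genes of this kind often hold a CCAAT box, which the factor NF-Y binds, and a cell cycle homology region (CHR), which the MuvB complexes bind. Promoter sequences in a RefSeq table on build GRCm38.p6, from 250 bases before to 50 bases after the start site, matched 31 of the 38 genes. Those of Aurkb, Ccna2, Cdca2, Foxm1, Kif20a, Smc4 and Tpx2 were not matched. The CHR was searched as TTTGAA or TTCGAA and the CCAAT box as CCAAT, both on either strand, and a match to one can share at most 1 letter with a match to the other. Other spellings of these motifs were not searched, so a promoter without a match may still hold one. The 150 bases before the start are printed for the genes whose levels are followed most closely below, 5′ to 3′ on the gene's strand, with matches to either motif in capitals. Lower-case stretches hold no match.

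Ube2c, chr2:164769779-164769928, plus strand: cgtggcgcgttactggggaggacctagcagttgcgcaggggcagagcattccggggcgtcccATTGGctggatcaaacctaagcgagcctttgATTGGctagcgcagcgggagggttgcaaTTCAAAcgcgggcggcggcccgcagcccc

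Top2a, chr11:99024190-99024339, minus strand: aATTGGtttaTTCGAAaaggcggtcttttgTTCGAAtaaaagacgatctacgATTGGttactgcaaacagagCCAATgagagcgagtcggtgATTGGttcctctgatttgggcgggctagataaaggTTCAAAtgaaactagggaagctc

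Cdk1, chr10:69352913-69353062, minus strand: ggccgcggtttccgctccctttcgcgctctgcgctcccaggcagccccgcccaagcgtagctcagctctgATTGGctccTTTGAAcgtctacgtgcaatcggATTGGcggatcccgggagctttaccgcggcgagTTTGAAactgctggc

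Ccnb2, chr9:70421555-70421704, minus strand: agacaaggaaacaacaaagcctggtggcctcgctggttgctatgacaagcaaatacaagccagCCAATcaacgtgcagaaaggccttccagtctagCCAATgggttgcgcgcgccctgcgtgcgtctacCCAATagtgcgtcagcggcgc

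Ccnb1, chr13:100786487-100786636, minus strand: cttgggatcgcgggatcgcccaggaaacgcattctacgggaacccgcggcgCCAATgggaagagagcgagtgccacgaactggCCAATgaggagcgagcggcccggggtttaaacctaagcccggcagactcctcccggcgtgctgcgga

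Plk1, chr7:122159285-122159434, plus strand: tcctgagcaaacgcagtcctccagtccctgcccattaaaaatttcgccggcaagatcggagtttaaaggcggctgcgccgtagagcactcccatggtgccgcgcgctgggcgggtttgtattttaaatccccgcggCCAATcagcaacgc

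Birc5, chr11:117849087-117849236, plus strand: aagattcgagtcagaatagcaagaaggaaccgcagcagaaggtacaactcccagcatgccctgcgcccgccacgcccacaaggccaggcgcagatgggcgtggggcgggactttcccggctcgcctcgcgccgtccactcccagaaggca

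Of the printed promoters, Ube2c, Top2a and Cdk1 had a CHR match 29, 23 and 15 bases before the start, with CCAAT matches farther upstream. Cdk1 had another CHR match 71 bases before the start, and Top2a had others 120, 140 and 179 bases before it, among its CCAAT matches. Ccnb2 had CHR matches 167 bases before and 5 bases after the start, and Plk1 had 1 at 31 bases after it, all outside the printed stretch. Ccnb1 had 2 CCAAT matches and no match to the CHR spellings searched in the window. Birc5 had no match to either motif, nor had Nusap1, Nuf2 and Tacc3. Over the 31 promoters, 74.2% held CHR letters, against 79.5% of 39 promoters of other G2 and mitosis genes, 6 of 30 promoters of S phase genes, 16.5% of 6024 promoters of genes measured in microglia and 21.7% of all 27025 promoters. The CCAAT box was in 71.0% of the 31 promoters and in 73.3% of the S phase promoters, so that it did not set the G2 and mitosis genes apart from S phase genes, against 41.1% of all promoters. Both motifs together were in 54.8% of the 31, 69.2% of the other G2 and mitosis promoters, 16.7% of the S phase promoters and 8.61% of all promoters. At least 2 CCAAT matches were found in 58.1% of the 31, 15 of 30 S phase promoters, 46.2% of the other G2 and mitosis promoters and 13.3% of all. The letters TATAAA, searched in the same way, were in 3.23% of the 31 and 15.7% of all. Median GC content was 62.0% in the 31 promoters, 61.3% in promoters of genes measured in microglia and 52.8% in all promoters. These matches are descriptions of letters in a window and not of bound sites.

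**Figure D1:**
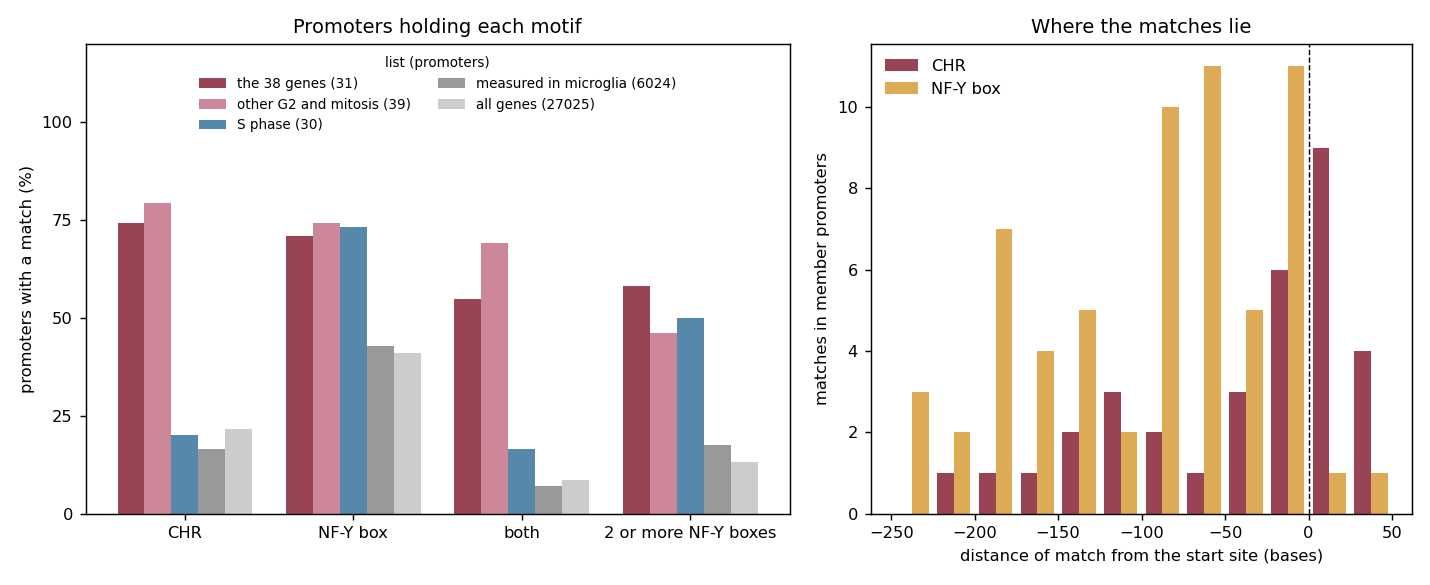
The left panel plots the percentage of promoters with a CHR match, a CCAAT box (labelled NF-Y box), both, or 2 or more CCAAT boxes in 5 lists of genes, with the number of promoters in brackets, and the right panel counts matches in the promoters of the 38 genes by distance from the start site in bins of bases. CHR matches were in 74.2% of promoters of these genes and 6 of 30 of those of S phase genes, and most lay close to the start site.

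The control library held 1156 cell barcodes with a median of 1947.5 UMIs and the stressed library 1467 with a median of 3767. After removing barcodes with fewer than 500 genes or more than 10% mitochondrial UMIs, 1068 and 1407 cells were kept. The libraries shared 13 barcodes, of which 8 and 5 were kept. Cells were assigned to classes by marker genes that include none of the 38 genes. In the control library 34.2% of microglia had Xist UMIs and no UMI of 4 Y-linked genes, and 20.7% had a Y-linked UMI, against 94.3% and 0.0904% in the stressed library. The pools of embryos thus also differed in sex makeup, and this cannot be told apart from the exposure. Because depth differed, shares of cells were taken after each cell was thinned to 1100 UMIs, with shallower cells left out.

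Microglia made up 629 of the control cells and 1106 of the stressed cells, border-associated macrophages 84 and 31, monocytes and granulocytes 18 and 16, neural progenitors 77 and 68, and neurons 132 and 86. The 9 microglial gate markers, which include the purinergic receptor P2ry12 and the fractalkine receptor Cx3cr1, summed to 4717 and 4867 CPM (UMIs per 1000000 UMIs of a class) in microglia, 810 and 987 CPM in border-associated macrophages and 59.4 and 415 CPM in neurons, which describes the gate and is no test of it. The gate for monocytes and granulocytes caught different cells in the 2 libraries. Camp and Ngp, granule genes of maturing neutrophils, were at 6786 and 5468 CPM in the control library and at 0 UMIs in the stressed library, whereas S100a8 was present in both (22320 and 8226 CPM). A cell was counted as dividing where at least 3 different genes of the set had a UMI after thinning, leaving out Hmgb2, Cks1b, Cks2, Tmpo and Smc4, which are also made outside division.

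The dividing share of microglia did not differ between the libraries beyond counting error. It was 14.1% among control microglia (83 of 588 cells, 11.4 to 17.2) and 13.9% among stressed microglia (153 of 1103, 11.9 to 16.1), and the stressed interval lay inside the control interval. Without thinning the shares were 20.5% and 23.3%, with the deeper library higher. The dividing share of neural progenitors was 23.4% for control (15 of 64, 13.8 to 35.7) and 21.9% for stressed cells (14 of 64, 12.5 to 33.97), and these too lay close together. Unthinned they were 27.3% and 38.2%, and without the cells of highest doublet score, which were 3.5% of each library, the control share was 13.6%. Over 7 alternatives that kept the rule for a dividing cell, control shares ran from 13.6% to 32.4% and stressed shares from 18.75% to 23.5%. Which library was higher thus depended on the setting.

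Border-associated macrophages and neurons showed lower dividing shares in the stressed library, on few cells. The share of border-associated macrophages was 19.5% for control (16 of 82, 11.6 to 29.7) and 9.68% for stressed cells (3 of 31, 2.04 to 25.8), with overlapping intervals. Unthinned it was 27.4% and 19.4%. Among neuron-gated cells the share was 9.71% (10 of 103, 4.75 to 17.1) and 2.56% (2 of 78, 0.312 to 8.96), again overlapping, and 9.85% and 6.98% unthinned. The control share was 25.9% at 2000 UMIs and 20.6% with a filter of 1000 genes and 5% mitochondrial UMIs. Neurons do not divide, so this class was taken as the one that should lack these transcripts. It did not lack them, so it could not serve as a negative check on the shares of the other classes. Its cells had a median of 1460 and 2742.5 UMIs where microglia had 2200 and 3982. The 10 dividing control cells of the neuron gate had 3243 CPM of neuron markers against 6501 CPM in the other 93 cells of the gate, and 7 of the 10 had a UMI of a progenitor marker. Whether those 10 cells were neurons was not tested, and neurons below means cells of the neuron gate. In monocytes and granulocytes 0 of 18 control cells were dividing, which allows a share of up to 16.7% by the limit of 3 counts and up to 18.5% by the exact interval, and 2 of 16 stressed cells were (12.5%, 1.55 to 38.3). Unthinned, these were 11.1% and 37.5%. The part that the change in makeup of this class had in the difference was not tested.

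**Figure D2:**
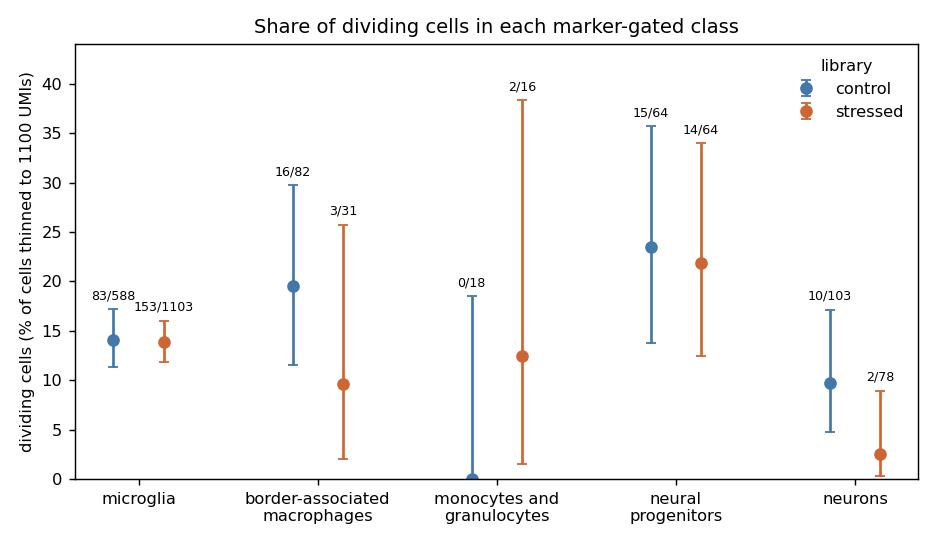
Points give the percentage of dividing cells in each marker-gated class after thinning to 1100 UMIs, in the control (blue) and stressed (orange) library, with exact 95% binomial intervals for counting error and dividing over counted cells above each. Microglia lay at 14.1% and 13.9%, and the 2 libraries' intervals overlapped in every class shown.

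A minority of dividing microglia carried S phase transcripts broadly at the same time. At least 3 of 43 S phase genes had a UMI in 28.9% of dividing control microglia and 37.9% of dividing stressed microglia, and 12.4% and 12.1% of all microglia had such S phase genes without being dividing by the G2 and mitosis genes. Progenitors showed more overlap, with 53.3% and 50.0% of dividing cells on 15 and 14 cells. Among dividing microglia, the cells with 3 or more S phase genes had medians of 2873.5 and 4252 UMIs, and those with 0 or 1 had 2853 and 5163. Within dividing microglia at full depth, the mitotic ubiquitin-conjugating enzyme gene Ube2c was lower in the cells with 3 or more S phase genes than in those with 0 or 1, at 723 against 1090 CPM in control cells (log2 ratio −0.59, −1.08 to −0.13) and 492 against 1107 CPM in stressed cells (−1.17, −1.44 to −0.90). It was the only gene of the 38 whose interval lay on the same side of 0 in both libraries, and no gene was higher in the S phase cells by that measure. Ccnb2 (−0.96 and −0.92), Ccnb1 (−0.60 and −1.08), Cenpf (−0.63 and −0.66) and Aspm (−1.24 and −1.17) had the same sign, with intervals that excluded 0 in the stressed library alone. So had Cdc20 (−0.17 and −1.10), Hmmr (−0.58 and −1.13), Cenpe (−1.28 and −0.83) and Birc5 (−0.12 and −0.30). The interval of Cks2 also lay below 0 in the stressed library alone (0.44 and −0.44), and that of Cks1b in the control library alone (−0.64 and −0.16). In the other direction, the interval lay above 0 for Tmpo in the stressed library alone (−0.58 and 0.57). It did so in the control library alone for Ccnf (2.15 and 0.28) and Foxm1 (2.15 and −0.20), each on 3 and 7 control UMIs. Ccna2 (0.05 and 0.18) and Cdk1 (0.23 and −0.13), whose products act from S phase onward, had intervals that spanned 0 in both. Across the 38 genes 23 had the same sign in both libraries.

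The levels of the 38 genes in microglia were nearly the same in the 2 libraries. UMIs were summed over the 629 and 1106 cells and divided by the class totals of 1630755 and 5028884 UMIs. Each transcript gives 1 tag at its 3′ end in this assay, so that CPM does not scale with transcript length. Summed over all 38 genes the level was 1952 CPM in control microglia, with an interval from 1885 to 2021, and 2017 CPM in stressed microglia, with one from 1978 to 2056. The log2 ratio of these sums was 0.05 (−0.01 to 0.11), or 0.16 (0.10 to 0.22) with edgeR's TMM scaling. The order of the genes was also shared, with a Spearman rho of 0.97 across the 38 genes, given as a description since genes are not replicates. Of 35 genes that reached 10 CPM in at least 1 library, 2 were higher in the stressed library by 1.5 times or more and 1 was lower, against 2.98% of all 7472 genes tested in the same way that were higher and 8.53% that were lower. In cells with Xist and no Y-linked UMI, 9 of 35 measured genes were higher, a larger share than the 8.19% of all genes. In thinned cells 5 of 32 were lower, against 16.4% of all genes. With all cells at full depth, the median log2 ratio of the 35 genes was 0.02, against −0.10 over all genes. TMM scaling moved the median of all genes to 0.02 and that of the 35 to 0.14, and put 4.98% of all genes higher and 5.23% lower, and since a scaling factor shifts all genes alike, the difference of 0.12 between the medians could not move with it. That difference was 0.02 with a stricter filter of 1000 genes and 5% mitochondrial UMIs and 0.31 in cells with Xist and no Y-linked UMI.

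Among the cyclins and their partners, which set the activity of Cdk1, 7 of 7 genes reached 10 CPM. Cks1b, a Cdk-binding subunit that also serves the breakdown of Cdk inhibitors, was the highest at 167 CPM in control and 178 CPM in stressed microglia. Cdk1 itself was at 84.0 and 80.9 CPM. Cks2, the related subunit, was at 67.5 and 76.2 CPM. Ccnb2 was at 47.8 and 44.7 CPM, Ccna2 at 38.02 and 42.8 CPM and Ccnb1 at 30.0 and 38.8 CPM. Ccnf, a cyclin that directs ubiquitin ligation and does not bind Cdk1, was the lowest of the group at 12.9 and 8.35 CPM on 21 and 42 UMIs. Its log2 ratio of −0.62 (−1.41 to 0.21) passed 1.5 times with an interval that spanned 0, and it was 0.83 in thinned cells and 0.27 in cells with Xist and no Y-linked UMI.

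The genes of chromosome structure included the most abundant of the set. Hmgb2, a chromatin protein that bends DNA and is made in resting cells as well, was at 365 and 393 CPM. Mki67, which coats mitotic chromosomes and is the usual label of cycling cells, was at 100.6 and 85.7 CPM (log2 −0.23, −0.49 to 0.04). Top2a, which untangles DNA before segregation, was at 90.8 and 101.0 CPM (0.15, −0.11 to 0.43). Tmpo, a nuclear envelope protein, was at 69.9 and 88.1 CPM, with an interval just above 0 (0.33, 0.03 to 0.64). Of the condensin subunits, Smc4 was level at 40.5 and 41.2 CPM (0.02, −0.38 to 0.45). Ncapg was at 9.81 and 17.5 CPM on 16 and 88 UMIs (0.83, 0.06 to 1.70), with an interval that overlapped that of Smc4. The Ncapg ratio was 0.21 in thinned cells and 0.57 with a stricter filter of 1000 genes and 5% mitochondrial UMIs. Cdca2, which recruits a phosphatase to chromatin, was at 15.3 and 12.9 CPM.

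Kinases and regulators held the largest difference. Plk1, the polo-like kinase that drives several steps of mitosis, was at 5.52 CPM (9 UMIs) in control and 14.5 CPM (73 UMIs) in stressed microglia. Its log2 ratio was 1.40 (0.39 to 2.58), which was 0.71 in cells with Xist and no Y-linked UMI. In dividing microglia alone it was at 30.5 and 64.5 CPM, on 8 and 58 UMIs. Aurkb and Birc5, the kinase and the survivin subunit of the chromosomal passenger complex, were at 30.0 and 29.4 CPM and at 156 and 157 CPM. Bub1, a checkpoint kinase, was at 17.8 and 19.3 CPM, and Foxm1, the transcription factor that activates many of these genes, at 10.4 and 9.15 CPM. No difference beyond counting error was seen in these 4 genes.

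Kinetochore genes had ratios on both sides of 0, with intervals that overlapped each other. Summed over the 4 genes, which are Cenpf, Cenpe, Nuf2 and Ndc80, their log2 ratio was −0.26 (−0.51 to −0.01). Cenpf, a large protein of the outer kinetochore, carried most of these UMIs at 65.0 and 48.1 CPM (−0.43, −0.77 to −0.09). Cenpe, the kinetochore motor, was at 27.6 and 22.1 CPM (−0.32, −0.83 to 0.21), and Nuf2 at 15.9 and 15.51 CPM. Ndc80, which forms a complex with Nuf2, was at 5.52 and 9.35 CPM on 9 and 47 UMIs, with an interval from −0.29 to 1.97. TMM scaling moved every ratio in microglia up by 0.11. The interval of the kinetochore sum (−0.15, −0.40 to 0.10) and that of Cenpf (−0.32, −0.66 to 0.02) then spanned 0. The same scaling put the summed genes of chromosome structure at 0.21 (0.11 to 0.31) and the summed cyclins and partners at 0.18 (0.06 to 0.30). Without it the intervals of these sums spanned 0. The sums of the other roles had intervals that spanned 0 either way.

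Of the 9 spindle genes, none had an interval that excluded 0. Nusap1, which binds and bundles spindle microtubules, was the highest at 55.2 and 56.1 CPM, and Tpx2, which activates Aurora A on the spindle, was at 31.3 and 36.2 CPM. Tacc3, which steadies spindle microtubules, was at 30.7 and 26.4 CPM, Hmmr, a microtubule-binding protein, at 22.1 and 20.9 CPM and Aspm, a spindle pole protein, at 19.6 and 22.7 CPM. The motors Kif11, Kif20b and Kif2c were at 17.8 and 20.1 CPM, 17.2 and 18.3 CPM, and 10.4 and 15.51 CPM. Among the 5 genes of mitotic exit and cytokinesis, Ube2c, which hands ubiquitin to targets of the anaphase-promoting complex, was at 176 and 180 CPM. Cdc20, which activates that complex, was at 24.5 and 24.9 CPM. Cep55 and Anln, which act in the final cut between daughter cells, were at 31.9 and 27.2 CPM and at 17.8 and 13.5 CPM, and Kif20a, a motor of the central spindle, at 10.4 and 13.5 CPM. The remaining genes, Gtse1 and Kif4, had fewer than 50 UMIs over both libraries and lay between 2.39 and 8.58 CPM.

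**Figure D3:**
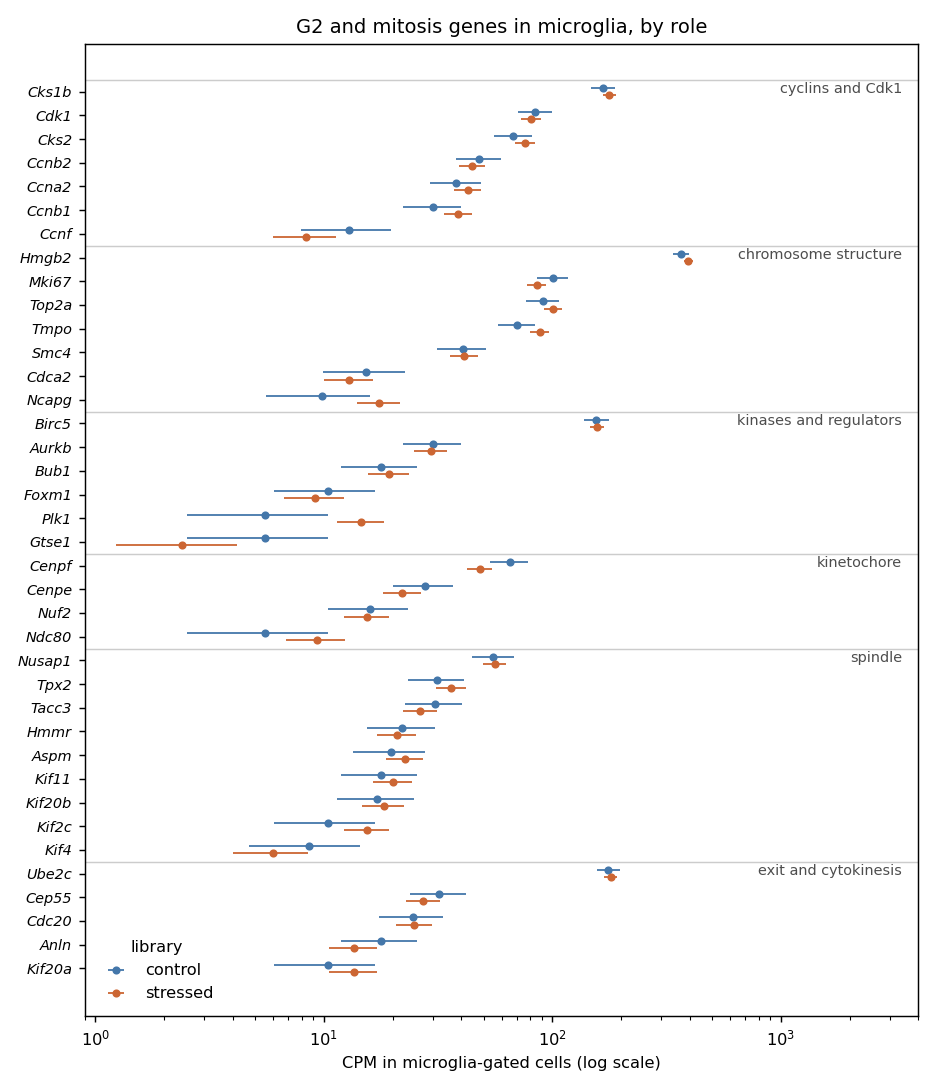
Each gene's level in microglia is plotted as CPM on a log axis, grouped by role, with exact 95% Poisson intervals, in the control (blue) and stressed (orange) library. The points of the 2 libraries lie close together for nearly all genes, and Plk1 is farthest apart among those of at least 10 CPM in a library, at 5.52 and 14.5.

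Genes of the rest of the cycle were compared in the same microglia, from lists chosen by function, beside the 2.98% of all genes that were higher and the 8.53% that were lower. Among 44 other G2 and mitosis genes, 36 were measured, 0 were higher and 1 was lower by 1.5 times, which was Ect2, a cytokinesis regulator, at 15.3 and 8.35 CPM. Among 43 S phase genes, 37 were measured, 4 were higher and 2 were lower, with a median log2 ratio of 0.12. Tyms, which makes thymidylate for DNA synthesis, was at 36.8 and 61.6 CPM (0.74, 0.34 to 1.17), and Pola1, a subunit of the priming polymerase, at 25.1 and 16.1 CPM (−0.64, −1.20 to −0.06). None of 11 measured genes of the G1 cyclin and E2F list and none of 9 measured inhibitors passed 1.5 times. Of 9 measured histone genes 1 was higher and 2 lower: Hist1h2ae was at 28.2 and 73.8 CPM (1.39, 0.94 to 1.86), Hist1h1c at 58.3 and 33.8 CPM and Hist1h2bc at 60.7 and 38.8 CPM.

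The 38 genes were then summed in each of the other classes. Summed levels were 3156 CPM (2967 to 3353) and 2332 CPM (2120 to 2560) in control and stressed border-associated macrophages, 3166 CPM (2935 to 3410) and 3291 CPM (3105 to 3485) in progenitors, and 2233 CPM (2040 to 2440) and 837 CPM (733 to 952) in neurons. Monocytes and granulocytes had 1402 CPM on 50 UMIs and 3552 CPM on 266 UMIs, with 27 and 5 of the 38 genes at 0. Stressed progenitors lay level with control progenitors (log2 0.06, −0.08 to 0.19), though TMM scaling within the class put them at 0.26 (0.12 to 0.39). Border-associated macrophages were lower in the stressed library (−0.44, −0.60 to −0.27, and −0.45 with TMM scaling), and 31 of the 37 genes with more than 3 UMIs in a library had the lower CPM there. Neurons were lower by more (−1.42, −1.65 to −1.19, and −1.39 with TMM scaling), as were 18 of 19 such genes. These intervals treat UMIs as independent, but the UMIs come from few cells: 16 and 3 dividing border-associated macrophages and 10 and 2 dividing neuron-gated cells. Fewer dividing cells and less RNA in each cannot be told apart in a sum.

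Border-associated macrophages had the 38 genes in nearly the microglial order, with a Spearman rho of 0.94 and 0.88 across genes, and held more Ube2c and Birc5. Ube2c was at 459 CPM (152 UMIs) in the control and 354 CPM (67 UMIs) in the stressed library, 1.38 (1.09 to 1.67) and 0.97 (0.59 to 1.33) above microglia on the log2 scale. Birc5 was at 357 and 264 CPM, which was 1.20 (0.87 to 1.52) and 0.75 (0.31 to 1.17) above microglia. Few cells carried these UMIs. In the stressed library 56 of the 67 Ube2c UMIs came from 2 dividing cells and 34 of the 50 Birc5 UMIs from 3. In the control library 16 dividing cells held 149 of the 152 Ube2c UMIs and 106 of the 118 Birc5 UMIs. The intervals do not cover the spread between cells. Anln, Cks2 and Kif11 also passed 1.5 times in both libraries, on 4 to 35 UMIs. In all, 5 of 33 genes were higher than in microglia in both libraries and 0 were lower, against 7.99% of all genes higher and 13.2% lower. Between the libraries, Ccnb2 was at 78.6 CPM (26 UMIs) in control and 21.1 CPM (4 UMIs) in stressed border-associated macrophages, with an interval below 0 (−3.88 to −0.37). Foxm1, Ccnf and Hmmr were at 0 UMIs in the stressed library, where 3 UMIs would be 15.8 CPM, against 4, 9 and 10 UMIs in the control library. By the exact interval for a count of 0, the upper bound of the log2 ratio was also below 0 for Ccnf (−0.18) and Hmmr (−0.36).

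Several genes of the set stood higher in progenitors than in microglia. Hmgb2 stood at 943 and 1003 CPM, 1.37 (1.13 to 1.60) and 1.35 (1.18 to 1.51) above microglia. Cks2 stood at 196 and 205 CPM (1.54 and 1.43 above), Cenpf at 155 and 160 CPM (1.25 and 1.73 above) and Ccnb1 at 86.6 and 101.0 CPM (1.53 and 1.38 above), all with intervals above 0 in both libraries. These intervals leave out the spread between cells. For Ccnb1, 5 dividing control cells held 16 of the 19 UMIs and 9 dividing stressed cells held 33 of the 36. Aspm, which keeps the spindle of neural progenitors oriented, was at 45.6 and 47.7 CPM against 19.6 and 22.7 CPM in microglia. In all, 9 of 34 genes were higher in progenitors in both libraries and 0 lower, and since 34.1% of all genes were higher and 17.1% lower in this comparison, the share of higher genes was no larger than in the background. Mki67 was at 54.7 and 70.2 CPM against 100.6 and 85.7 CPM in microglia. Hmmr was at 4.56 CPM on 1 UMI and 42.1 CPM on 15 UMIs, and Aurkb at 27.3 CPM on 6 UMIs and 2.81 CPM on 1 UMI, the genes whose intervals between the libraries excluded 0 in progenitors.

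The summed level in neuron-gated cells lay above that in microglia in the control library (2233 against 1952 CPM) and below it in the stressed library (837 against 2017 CPM). Ccna2 was at 4.57 and 7.21 CPM (1 and 2 UMIs) against 38.02 and 42.8 CPM in microglia, and Cdk1 at 27.4 and 14.4 CPM (6 and 4 UMIs). Ccnb2 was at 13.7 and 14.4 CPM (3 and 4 UMIs) and Mki67 at 36.5 and 3.61 CPM (8 and 1 UMIs). All had intervals below 0 in both libraries, on few UMIs. In this class 3 UMIs equal 13.7 and 10.8 CPM. In all, 0 of 30 genes were higher than in microglia in both libraries and 10 were lower, against 32.8% of all genes higher and 20.9% lower. In the control library 5 genes were higher in neurons than in microglia with intervals above 0 on the log2 scale, which were Ube2c (1.26, 0.90 to 1.60), Cks2 (1.02, 0.39 to 1.62), Tmpo (0.76, 0.09 to 1.39), Cenpf (0.75, 0.05 to 1.40) and Hmgb2 (0.56, 0.27 to 0.85). Ube2c was at 420 CPM (92 UMIs) in control and 108 CPM (30 UMIs) in stressed neurons, and Hmgb2 at 539 and 260 CPM, and in the stressed library both lay below microglia. In monocytes and granulocytes Hmgb2 was the leading gene in both libraries, at 841 CPM (30 UMIs) and 1415 CPM (106 UMIs), above microglia by 1.21 (0.62 to 1.73) and 1.85 (1.55 to 2.13) on the log2 scale.

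**Figure D4:**
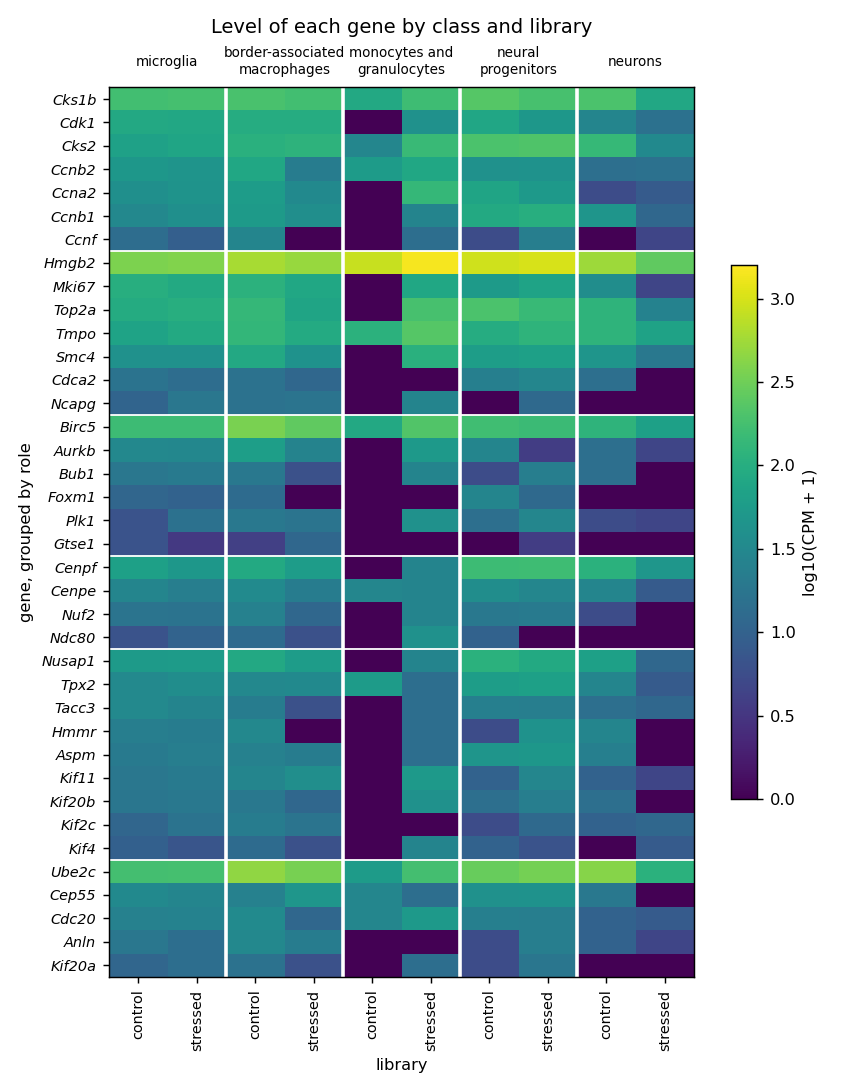
Colour gives log10 of CPM plus 1 for each of the 38 genes (rows, grouped by role) in each class and library (columns), with the darkest colour for 0 UMIs. Hmgb2, Ube2c and Birc5 are bright in nearly every column, Ube2c at 459 in control border-associated macrophages, and 27 of 38 genes are at 0 in control monocytes and granulocytes, whose 3 UMIs equal 84.1 CPM.

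Dividing microglia held most UMIs of the set. They were 14.1% and 13.9% of the cells and held 16.5% and 17.9% of all UMIs, and 76.7% and 76.9% of the UMIs of the 33 genes used to call them, which follows from the rule. The 5 genes left out of the rule had 55.9% and 56.8% of their UMIs there, with Hmgb2 in 11.7% and 14.5% and Cks1b in 8.51% and 9.47% of the other microglia at equal depth. In dividing cells after thinning, Hmgb2 had a UMI in 72.3% and 79.7%, Birc5 in 65.1% and 56.9%, Ube2c in 57.8% and 51.6%, Cks1b in 41.0% and 50.3% and Mki67 in 54.2% and 32.7%. The usual label of cycling cells was thus not detected at this depth in many cells that carried 3 other genes of the set. Plk1 had a UMI in 4.82% and 7.84% of them, and Gtse1 in 2.41% and 1.31%.

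Genes outside the set were then described in the same cells, with no test, since the 38 genes had chosen them. All measured genes of the other G2 and mitosis list were higher in dividing than in other microglia by 1.5 times, 41 of 41 and 43 of 43, with median log2 ratios of 3.34 and 3.29. Over all genes outside the set, 23.3% were higher and 17.2% lower in the control library, and 17.3% higher and 8.35% lower in the stressed library. Prc1, which bundles the central spindle, was at 168 against 4.52 CPM in the control and 160 against 6.30 CPM in the stressed library. Histone genes were higher in 10 of 11 and 10 of 12. S phase genes were split, with 18 and 24 of 38 higher and 4 and 3 lower. Rrm1, a subunit of the enzyme that makes deoxynucleotides, was at 87.7 against 21.8 CPM and 106 against 29.3 CPM, whereas Dtl, which has the licensing factor Cdt1 degraded, was at 11.4 against 16.6 CPM and 5.56 against 20.8 CPM. In G1 cyclin and E2F genes 3 and 1 of 11 were higher and 2 and 1 lower.

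Among the cycle inhibitors, a pair that binds the G1 kinases had the highest ratios of dividing over other cells, at 4.30 and 3.10 on the log2 scale for Cdkn2c and 1.98 and 3.40 for Cdkn2d. Cdkn2c was at 149 against 7.53 CPM in the control library and 160 against 18.7 CPM in the stressed library, and Cdkn2d at 53.4 against 13.6 CPM and 51.2 against 4.85 CPM. In the whole list 3 of 9 and 5 of 10 measured inhibitors were higher. Microglial markers differed little: 0 of 9 were higher, and 0 and 1 were lower, with medians of −0.20 and −0.18. Cx3cr1 was at 1743 against 1242 CPM and 1761 against 1335 CPM in dividing cells, and Crybb1 at 606 against 810 CPM and 771 against 1095 CPM. Outside all lists, the genes with the highest ratios were Hist1h2ak, Cdkn3, Kpna2, Pclaf, Cenpw, H1f0, Ube2s, Ccdc34, Tuba1c and Rad21. Pclaf, which binds the replication clamp, was the most abundant of these at 625 against 97.8 CPM and 687 against 87.2 CPM, and Ube2s, which works with Ube2c on the anaphase-promoting complex, was at 439 against 93.3 CPM and 491 against 99.1 CPM. Dividing cells also held more UMIs, with medians of 2852 and 5067 against 2215 and 3852.5 in other microglia.

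**Figure D5:**
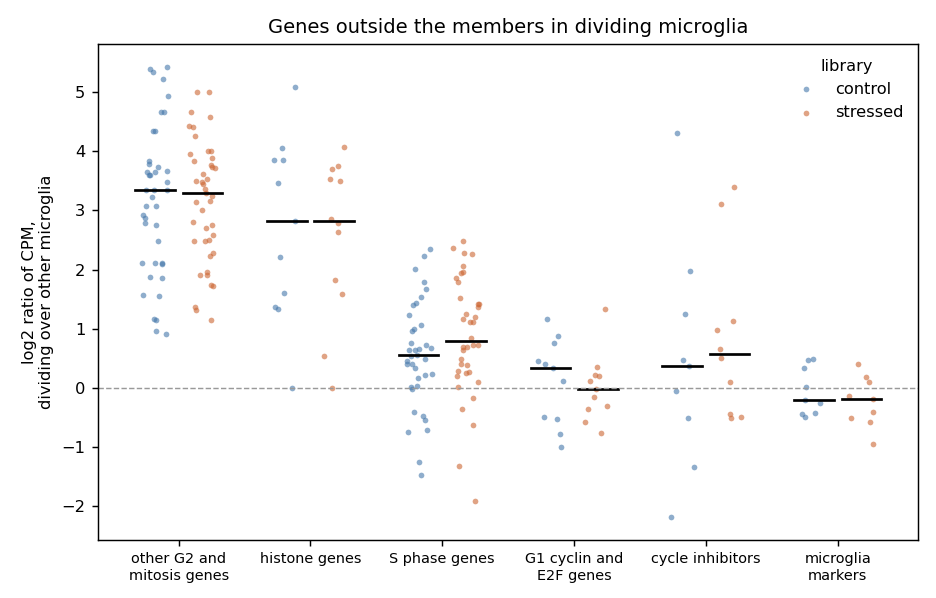
Each point is a gene outside the 38, placed by its log2 ratio of CPM in dividing over other microglia in the control (blue) or stressed (orange) library, for genes of at least 10 CPM in either set of cells, with black bars at list medians. Other G2 and mitosis genes have medians of 3.34 and 3.29, while microglial markers lie around 0.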

How the data were processed

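The deposited matrices hold UMI counts per gene and cell barcode for 2 libraries, not normalized. Per the submitters' processing notes, which give no order, STAR, Cell Ranger 3.0.0 and Seurat 2.4 were used with GRCm38.p5 (mm10). The filters behind the deposited barcodes are not given in the sources used here, and the barcodes equal the recovered cells that the labels state (1156 and 1467).

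The 38 genes and all gene lists were chosen with earlier results of these data known. Barcodes passed with 500 or more genes and no more than 10% mitochondrial UMIs, and each cell was given the class whose markers had the most UMIs, where that list had at least 3 UMIs, 2 different markers and 60% of the UMIs of all lists. Neural cells were split where 1 list had at least 2 UMIs and 2 times the other. Cells between (21 and 15), vascular (7 and 6) and ungated (100 and 79) are not described. Scrublet in scanpy 1.11.5 marked 2 and 3 cells at its own threshold, too few for a working caller, so doublets were removed in an alternative only. Counts were summed per class and library and divided by the class total (CPM), with exact Poisson intervals. Ratios have exact conditional binomial intervals and shares exact Clopper-Pearson intervals, all at 95%. A sum of 0 was set to 3 UMIs for a ratio, and no ratio was taken where both sums were 3 or fewer or where the bound gave no direction. Comparisons of 1.5 times used genes of at least 10 CPM, without mitochondrial, ribosomal, haemoglobin and sex-linked marker genes in the background. Genes of the set were named with values where they had at least 50 UMIs over both libraries in microglia, or 10 in other classes. Exceptions under these limits were Ccna2, Ccnb2 and Mki67 in neurons, Aurkb in progenitors and Foxm1 and Ccnf in border-associated macrophages. Gtse1 in microglia was another. From the further lists up to 4 genes of largest ratio between the libraries could be named, and outside all lists the 10 highest in dividing microglia of at least 100 CPM. The S phase split, Camp, Ngp, S100a8, Prc1, Rrm1, Dtl, Cdkn2c, Cdkn2d, Cx3cr1 and Crybb1 were chosen after their values were seen. Alternatives were edgeR 4.0.16 and DESeq2 1.42.0 scaling factors, other cell filters, Leiden clusters without cell-cycle genes, other counts of genes and other depths. The scripts were tested on simulated data.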

Additional observations from a re-analysis of the deposited data

Results flagged for a closer look

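The summed 38 genes had a log2 ratio of stressed over control of −0.44 in border-associated macrophages and −1.42 in neuron-gated cells, against 0.05 in microglia. The microglial interval of −0.01 to 0.11 spanned 0 and its value was −0.10 with the stricter cell filter, so that no direction is given for microglia. The difference between classes was not tested, since there was 1 library per condition. The sums rest on 84 and 31 border-associated macrophages and on 132 and 86 neuron-gated cells, and microglial gate markers were at 59.4 CPM in control and 415 CPM in stressed neuron-gated cells. Whether these values moved with the ratio was not tested.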

How the results depend on the processing

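The dividing share of microglia in the control and stressed library was 18.0% and 17.3% with at least 2 genes, 7.65% and 7.34% with at least 5, 17.9% and 17.2% with all 38 genes counted, 20.5% and 23.3% without thinning, 22.8% and 19.3% at 2000 UMIs, and 19.7% and 16.7% with 1000 genes and 5% mitochondrial UMIs. The summed log2 ratio was 0.16 with TMM factors, 0.16 with DESeq2 size factors, −0.10 with the stricter cell filter and 0.17 in cells with Xist and no Y-linked transcript. The number of genes higher by 1.5 times was 0 of 11 with a minimum of 50 CPM, 1 of 37 with the stricter filter and 9 of 35 in cells with Xist. The number lower was 0 of 35 with TMM and with DESeq2 factors and 0 of 11 with 50 CPM. It was 5 of 32 in thinned cells, 2 of 38 with no CPM minimum and 2 of 37 with the stricter filter. Ccnf turned to 0.83 in thinned cells and 0.27 in cells with Xist. The cause was not tested, except that a minimum of 50 CPM leaves 11 genes of the set. Of 324 values of single genes under alternatives, 297 lay inside the interval given with all cells and 25 outside it, and 2, both of Ccnf, turned the sign of a ratio that had passed 1.5 times. Between the medians of the set and of all genes the difference was 0.12 as reported, 0.02 with the stricter filter and 0.31 in cells with Xist. The control share of neurons was 25.9% at 2000 UMIs and 20.6% with the stricter filter, and that of control progenitors 41.2% at 2000 UMIs. Leaving out barcodes found in both libraries and another seed for the thinning were added after the data were seen. With 1 library per condition no replicate could be left out, and depth limits genes under about 10 CPM most: 9 UMIs underlie the control value of Plk1.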
